A study of Mus musculus with 2 samples.

Results

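MiR-199a, miR-199b and miR-214 were measured in C3H10T1/2, a mouse line of mesenchymal precursors of fat, bone and cartilage cells, after 3 days with BMP7 at 3.3 nM or with vehicle. BMP7 is a secreted bone morphogenetic protein that signals through SMAD proteins, and the study asked which miRNAs it regulates. Total RNA of each culture was labelled with Cy3 and put on 1 miRNA array per group, so no difference below has a replicate check and no p-value is given. The members were chosen by the probe names miR_199a, miR_199a_AS, miR_199b and miR_214 after the species prefix, with 1 probe per name and a mouse-named probe ahead of a human-named one. This gave 4 of the 255 mouse miRNAs on the array, each printed as 4 spots. MiR-199b alone of the 4 has a mouse-named probe, so each detected member rests on a human-named one. A human-named second probe of miR-199b and a row named miR-199-5p in a separate panel are given beside them. Of the 4, miR-199a, miR-199a_AS and miR-214 were detected on both arrays, and miR-199b on neither.

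In mammals, a long noncoding transcript, Dnm3os, carries one miR-199a hairpin and the miR-214 hairpin on the strand opposite to the dynamin gene Dnm3. Loss of Dnm3os impairs skeletal growth in mice, and Twist1, a transcription factor of mesenchyme, is known to drive it. A strand of miR-199a is known from C3H10T1/2 cells as responsive to BMP2 and as a brake on Smad1 in chondrogenesis, and miR-214 is known to restrain bone formation in mouse osteoblasts. A miRNA pairs with its targets mainly through its seed, bases 2 to 8.

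The mature sequences are shown because they set which relatives a probe could read. They are those of NCBI RefSeq (build GRCm38.p6), with the seed in capitals. The letters of the array probes were not given in the sources used here. The suffix _AS is taken as the opposite arm of the miR-199a hairpin, and which arm the names miR-199a, miR-199b and miR-214 stand for was not stated.
mmu-miR-199a-5p, from Mir199a-2 at chr1:162217844-162217866 (+): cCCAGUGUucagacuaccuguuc
mmu-miR-199a-3p, from Mir199a-2 at chr1:162217883-162217904 (+): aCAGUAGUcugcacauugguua
mmu-miR-199b-3p, from Mir199b at chr2:32318524-32318545 (+): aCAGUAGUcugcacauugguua
mmu-miR-214-5p, from Mir214 at chr1:162223397-162223418 (+): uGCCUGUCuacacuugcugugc
mmu-miR-214-3p, from Mir214 at chr1:162223438-162223459 (+): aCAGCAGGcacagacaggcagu

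The 3p arms of miR-199a and miR-199b had 0 differences over 22 bases, so no probe for that arm can tell them apart. A second gene, Mir199a-1 on chromosome 9, gives the same 2 mature miR-199a sequences as Mir199a-2. For the 5p arm of miR-199b, the stretch of the Mir199b hairpin that aligns to mmu-miR-199a-5p differed from it at 1 of 23 bases, C10U counted from the 5′ end, with the differing base in capitals.
Mir199b hairpin, chr2:32318485-32318507 (+): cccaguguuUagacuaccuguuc
The seeds of the miR-199a and miR-199b 3p arms were the same, and the aligned 5p stretch kept the miR-199a-5p seed. The seeds of miR-199a-3p and miR-214-3p differed at 2 of 7 bases, U5C and U8G. In the RefSeq table the miR-214-3p seed is also that of mmu-miR-761.

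Both hairpins inside Dnm3os are shown, with the mature arms in capitals, since one transcript can give rise to miR-199a and miR-214 together. They lie 5444 bases apart on the same strand.
Mir199a-2, chr1:162217814-162217923 (+): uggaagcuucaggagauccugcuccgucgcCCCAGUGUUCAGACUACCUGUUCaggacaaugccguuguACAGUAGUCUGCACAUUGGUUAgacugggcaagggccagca
Mir214, chr1:162223368-162223477 (+): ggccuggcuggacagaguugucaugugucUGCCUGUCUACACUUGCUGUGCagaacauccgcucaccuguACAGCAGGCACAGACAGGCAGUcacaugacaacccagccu
By the same annotation Mir199a-1 lies within the dynamin gene Dnm2 and Mir199b within Dnm1.

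The arrays as a whole set the frame for these values. In the Cy3 channel, the scanner headers give a laser power reading of 3.17 with BMP7 and 2.45 with vehicle. The median local background was 4650 intensity units with BMP7 and 3756 with vehicle. The maker's Cy3 Control spots nevertheless had a lower median brightness with BMP7, 29939, against 35681 with vehicle. By the detection rule, which asks for at least 2 of 4 spots above their local background by 948 units (BMP7) or 1152 units (vehicle), 41 mouse miRNAs were detected with BMP7 and 57 with vehicle, 64 on 1 or both. All 9 listed markers of mesenchymal cells and fibroblasts, which include miR-199a and miR-214, were detected on 1 or both arrays. Among them, miR-143 was detected with vehicle only and miR-221 with BMP7 only. Their summed brightness above background was 39714 with BMP7 and 35713 with vehicle. Without miR-199a and miR-214, the sum over the other 7 markers was 22685 with BMP7 and 25656 with vehicle, so its direction turned. These sums are not normalized. On the normalized scale 8 of the 9 were higher with BMP7, against 48.4% of the 64 detected miRNAs, with a median log2 change of 0.31. The 8 include miR-199a at 0.94 and miR-214 at 0.91. Of the other 7 markers, miR-22 was at 1.12 and miR-221 at 0.87, both in block 11 with miR-214. MiR-21 was at 0.31, miR-31 at 0.13 and miR-222 at 0.05. MiR-143, counted among the 8, was at 0.00, and miR-145 was lower at -0.57. Of 6 blood, 7 epithelium, 5 muscle, 4 neuron, 1 endothelium and 1 liver probes, the detected ones were miR-223, miR-141 and miR-499. MiR-141 was detected with vehicle only and miR-499 with BMP7 only. The summed brightness was 3271 with BMP7 and 1584 with vehicle for the blood probes, where miR-223 (in block 11 with miR-214) was the detected one. It was 0 with BMP7 and 707 with vehicle for the epithelium probes, 778 with BMP7 and 675 with vehicle for muscle, and 0 with BMP7 and 461 with vehicle for neuron, a probe below its background counting as 0. The part of other cells in the results was not tested.

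MiR-199a was brighter with BMP7. Its spots read 10481, 10009, 9438 and 9275 Cy3 intensity units on the BMP7 array, against 7004, 6332, 5765 and 5813 on the vehicle array. The spots of the groups did not overlap. Part of that brightness is background: above it, the mean was 4870 ± 822 with BMP7 and 2661 ± 522 with vehicle (SD over 4 spots). After background correction and quantile normalization, miR-199a averaged 12.82 ± 0.28 with BMP7 and 11.88 ± 0.24 with vehicle on the log2 scale (SD, 4 spots each). That is a log2 change of 0.94 ± 0.18, or 1.92-fold higher with BMP7, where the error is a standard error over spots and does not cover the spread between cultures.

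MiR-199a_AS, the name for the opposite arm, was brighter with BMP7 by a like amount. Its spots read 9771, 8812, 8723 and 8946 on the BMP7 array, against 4310, 6623, 6277 and 6419 on the vehicle array. The groups did not overlap. The vehicle spot of 4310 stood apart from the other vehicle spots in raw brightness, but its local background, 1958, was also low, so that 2352 units remained above background, within the range of the other vehicle spots. Above background the mean was 4124 ± 792 with BMP7 and 2262 ± 627 with vehicle (SD, 4 spots each). The normalized log2 change was 0.85 ± 0.20, or 1.80-fold higher.

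MiR-214 had the tightest spots of the detected members. They read 18186, 17363, 15909 and 15283 on the BMP7 array, against 12561, 11632, 10505 and 11559 on the vehicle array. The lowest BMP7 spot was above the highest vehicle spot, by 0.73 on the normalized log2 scale, against gaps of 0.36 for miR-199a and 0.15 for miR-199a_AS. Above background the mean was 12159 ± 1092 with BMP7 and 7396 ± 712 with vehicle (SD, 4 spots each). The normalized log2 change was 0.91 ± 0.06, or 1.88-fold higher.

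Neither probe of miR-199b was detected, so no fold is given for it from the Cy3 channel. The mouse-named probe read 4425, 4146, 6094 and 4107 on the BMP7 array, against 3111, 3406, 3176 and 3499 on the vehicle array. Only the BMP7 spot of 6094 passed its background by the margin asked; the remaining 7 spots lay below their own background. The human-named probe read between 4104 and 4526 with BMP7 and between 2911 and 3501 with vehicle, with no spot passing. Mean brightness of the mouse-named probe was 1.42 times as high with BMP7, but its mean local background was 4952 with BMP7 and 3699 with vehicle. A level below the detection margin does not show that miR-199b is absent, and miR-199b-3p, if made, could be read by a probe for miR-199a-3p.

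**Figure D1:**
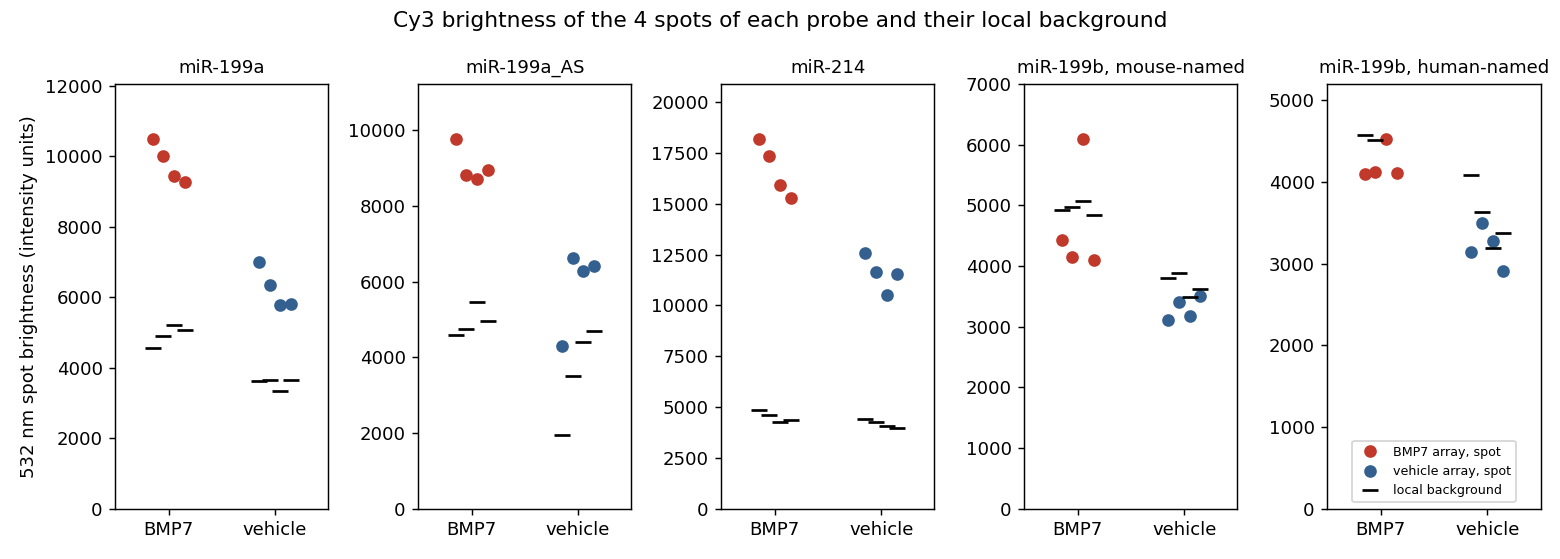
Cy3 brightness (intensity units) of the 4 spots of each probe on the BMP7 array and the vehicle array, with black bars for each spot's local background. For miR-199a, miR-199a_AS and miR-214 the BMP7 spots all lie above the vehicle spots, while the spots of both miR-199b probes lie close to or below their background, apart from the BMP7 spot of 6094.

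The normalized log2 changes of the 3 detected members lay close together, but relative to the other probes of their print block they were 0.63 for miR-199a, 0.79 for miR-199a_AS and 0.30 for miR-214. On the normalized scale, the log2 change of miR-199a exceeded that of miR-199a_AS by 0.09 ± 0.27 and that of miR-214 by 0.02 ± 0.19, and miR-199a_AS minus miR-214 was -0.07 ± 0.21 (standard errors over spots). These differences are smaller than their errors, which are wide enough to leave room for unequal changes. Spots 1 and 2 of a probe were printed one after the other, and spots 3 and 4 likewise at another place in the same print block. For miR-199a the first pair averaged 13.04 with BMP7 and 12.04 with vehicle on the log2 scale, and the other pair had a log2 change of 0.88. The pairs gave log2 changes of 0.85 and 0.85 for miR-199a_AS, and of 0.92 and 0.90 for miR-214. Because Mir199a-1 also yields both miR-199a arms, the arrays cannot tell which gene the miR-199a signal comes from. In total RNA of a culture, more cells of a kind and more miRNA per cell cannot be told apart either.

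Set against all 64 detected mouse miRNAs, the spots with BMP7 were all brighter than any with vehicle for 3 of 3 detected members and for 12 of the 64 (18.8%). All 3 were at least 1.5-fold higher, against 20.3% of the 64, and 0 were at least 2-fold higher, against 4.69%. Higher values of any size were seen for 48.4% of the detected miRNAs. The median log2 change was 0.91 over the 3 members, -0.02 over the 64 and -0.08 over the 61 others. By size of the change, miR-199a stood at rank 5, miR-214 at rank 6 and miR-199a_AS at rank 8. The members share a hairpin or a host transcript and are not independent.

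**Figure D2:**
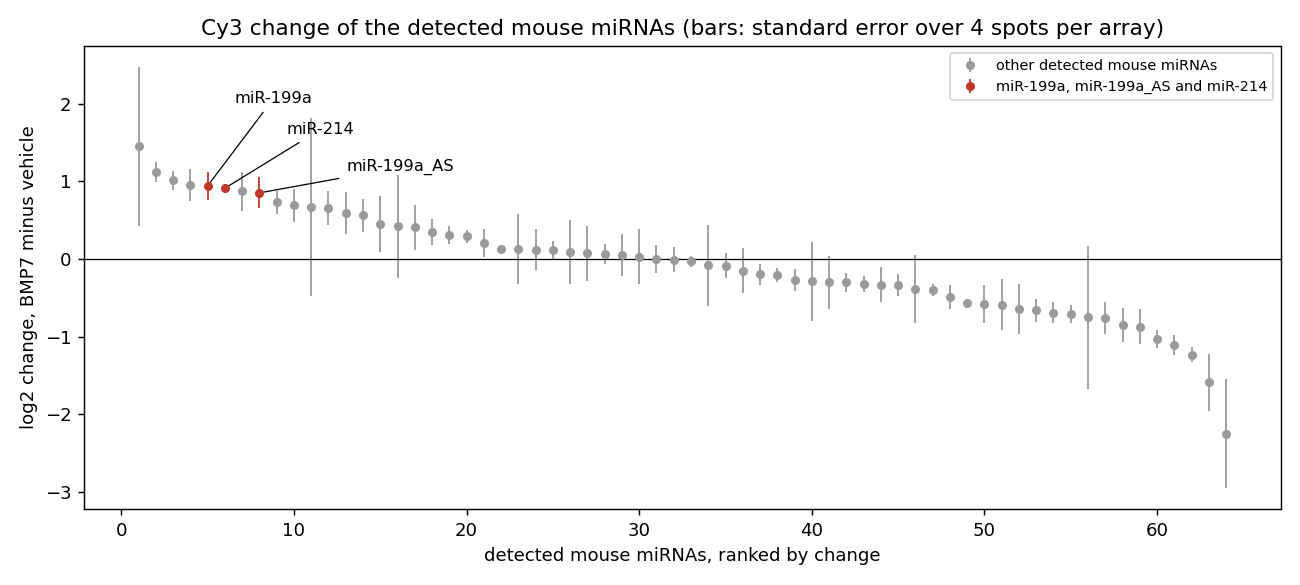
Log2 change, BMP7 minus vehicle, of the 64 detected mouse miRNAs in order of size, with standard errors over spots as bars. The red points are miR-199a (0.94), miR-214 (0.91) and miR-199a_AS (0.85), at ranks 5, 6 and 8.

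The place of a probe on the array moved with the result. The array is printed in 16 blocks, and the median log2 change of all probes in a block ranged from -0.73 to 0.62. MiR-214 lies in block 11, the block with the highest median. There the 23 other probes had a median log2 change of 0.61, and the 5 other detected miRNAs (miR-22, miR-221, miR-223, miR-30a-5p and miR-328) one of 0.87, close to the 0.91 of miR-214. Relative to its block, miR-214 was 0.30 higher on the log2 scale, under 1.5-fold. For miR-199a, in block 15, the other probes had a median of 0.31 and the difference was 0.63. For miR-199a_AS, in block 7, the other probes had a median of 0.05 and the difference was 0.79.

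The Cy3 Control spots gave a second view of the blocks, since each block holds 12 of them per array. Their log2 change in net brightness was 0.09 in block 15, 0.04 in block 11 and -0.14 in block 7, against a median of -0.22 over the blocks and a range of -0.47 to 0.09. Blocks 15 and 11 thus had the highest values of the 16. Scaled on the Cy3 Control spots of their own block, miR-199a was at 0.62, miR-199a_AS at 0.83 and miR-214 at 0.62 on the log2 scale, all at least 1.5-fold higher. The share of all detected mouse miRNAs past 1.5-fold under that scaling was not counted. The part of array position in the changes was not tested beyond these values.

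**Figure D3:**
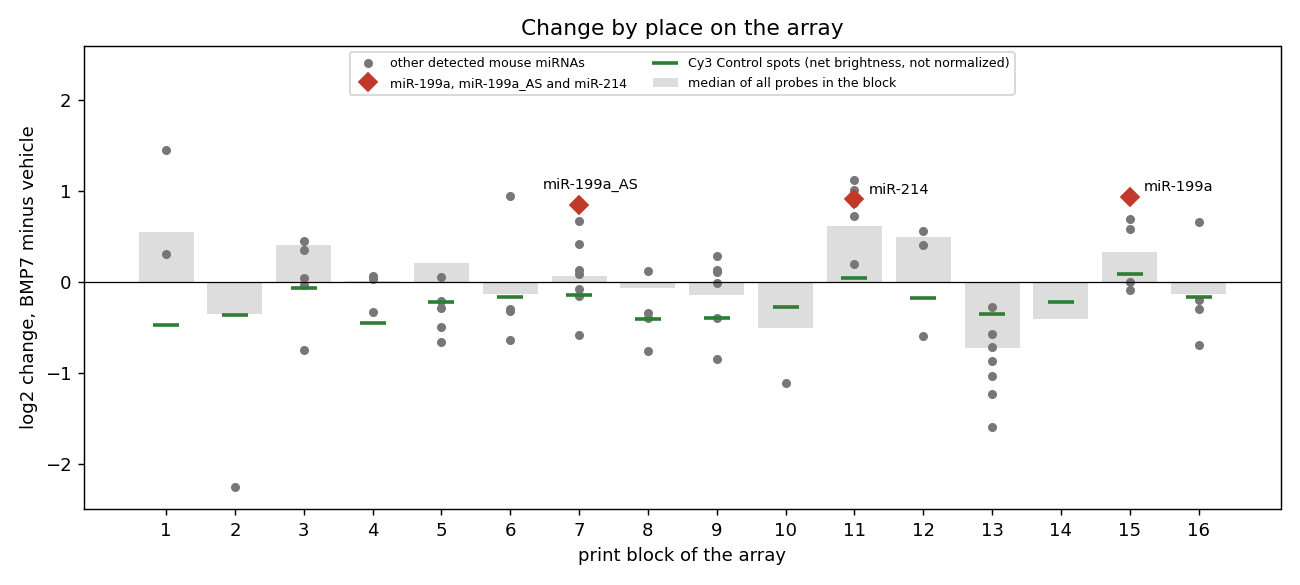
Log2 change, BMP7 minus vehicle, by print block: grey bars are the median of all probes in a block, grey points other detected miRNAs, red diamonds the detected members and green marks the Cy3 Control spots before normalization. Block 11, with miR-214, has the highest bar (0.62), and miR-199a_AS stands 0.79 above the other probes of block 7.

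The direction held under the other ways of processing, and the size did not. In all 66 alternative values for the 3 detected members the log2 change stayed above 0, from 0.29 to 2.02. Those that left out 1 spot or took the median of the spots could not fall below 0, because the groups' spots did not overlap. The 66 also include the authors' deposited folds as given, where 92.6% of the array probes were higher with BMP7. With no background correction the changes were 0.76 for miR-199a, 0.63 for miR-199a_AS and 0.67 for miR-214. With no normalization they were 0.71, 0.70 and 0.66 in the same order. With scaling on all Cy3 Control spots they were 1.03, 1.01 and 0.98, so that 2 of the 3 passed 2-fold. That scaling moves the log2 change of every probe by an equal amount, and the share of all detected mouse miRNAs past 2-fold under it was not counted. The lowest values came from the ratio of Cy3 to second-channel brightness centred on each array's median, at 0.41 for miR-199a, 0.32 for miR-199a_AS and 0.29 for miR-214, none of them 1.5-fold.

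**Figure D4:**
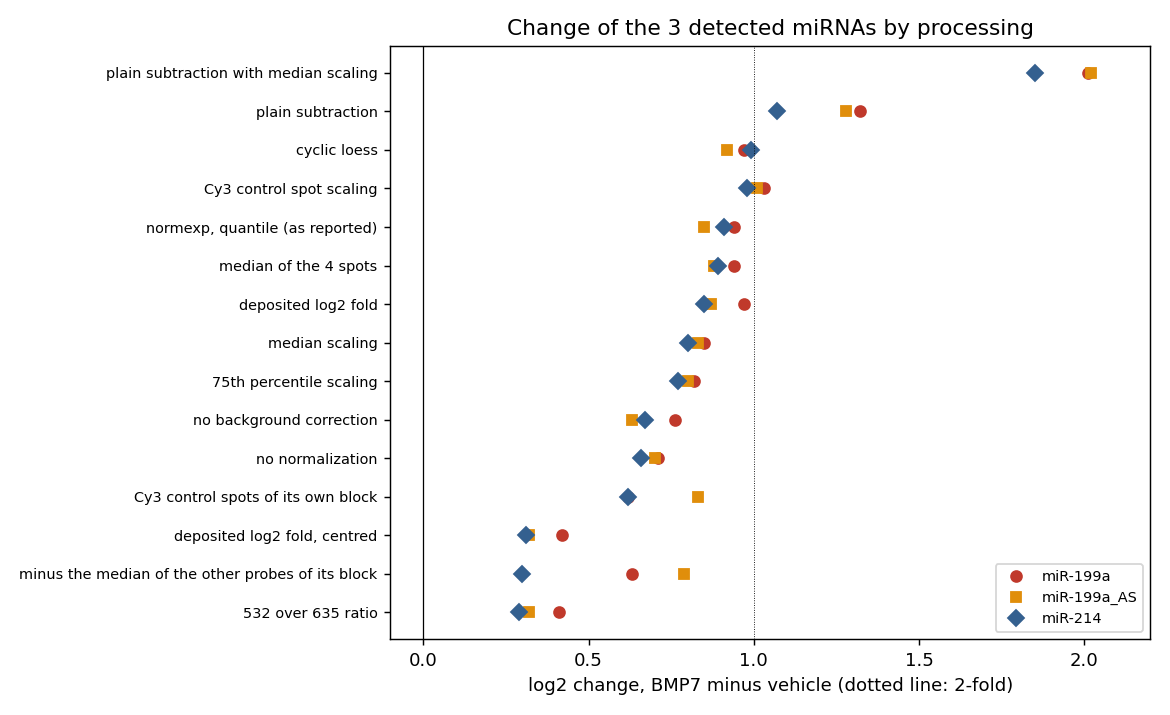
Log2 change, BMP7 minus vehicle, of miR-199a (circles), miR-199a_AS (squares) and miR-214 (diamonds) under each way of processing, with 2-fold as the dotted line. All values lie above 0, from 0.29 for miR-214 as a centred ratio of wavelengths to 2.02 for miR-199a_AS with plain subtraction and median scaling.

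The sources used here do not state the content of the second, red channel of the scans. In that channel the members differed little between arrays. MiR-199a averaged 6002 ± 602 with BMP7 and 6392 ± 904 with vehicle. MiR-199a_AS averaged 3331 ± 162 with BMP7 and 3372 ± 168 with vehicle, and miR-214 9046 ± 357 with BMP7 and 9658 ± 626 with vehicle (SD, 4 spots each). The spots of the groups overlapped for all 3. Over all 377 probes the median log2 change in brightness was -0.12 in the red channel, against 0.14 in the Cy3 channel.

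The authors' deposited table gives a ratio that was rebuilt as Cy3 over red brightness, relative to the same ratio of the Control_1 spots, with no background subtracted. In it miR-199a was at 0.0935 with BMP7 and 0.0478 with vehicle, 1.95-fold higher. In the authors' deposited table miR-199a_AS was at 0.155 with BMP7 and 0.0852 with vehicle (1.82-fold), and miR-214 at 0.105 with BMP7 and 0.0585 with vehicle (1.80-fold). All 3 were at least 1.5-fold higher there, but so were 43.1% of its array probes, and 92.6% were higher by any amount; 0 were at least 2-fold higher, against 7.67%. The median log2 fold of those probes in the authors' deposited table was 0.54, and against it miR-199a stood at 0.42, miR-199a_AS at 0.32 and miR-214 at 0.31, or 1.34-, 1.25- and 1.24-fold. After that centring 4.42% of the probes were at least 1.5-fold higher, and none of the members. By deposited fold, miR-199a ranked 31, miR-199a_AS 46 and miR-214 49 among them.

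The deposited fold can be split into its parts. For miR-199a the log2 of the Cy3 to red ratio was 0.74 higher with BMP7, for miR-199a_AS 0.64 and for miR-214 0.63. The Control_1 ratio, which divides every probe, was 17.5 with BMP7 and 20.5 with vehicle, and this added 0.22 to each log2 fold. Both miR-199b probes, though not detected by Cy3 brightness, are listed in the authors' deposited table. There the mouse-named one was 1.69-fold higher (0.0911 with BMP7 and 0.054 with vehicle) and the human-named one 1.28-fold (0.144 with BMP7 and 0.112 with vehicle). Relative to the median of the array probes, the authors' deposited table put them at 0.21 and -0.19 on the log2 scale, so the probes of this name differ in sign there.

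The customized panel of 16 miRNAs in the authors' deposited table, for which the sources used here state no assay, unit or normalizer, holds miR-199-5p. In the authors' deposited table its value was 1.75e-06 with BMP7 and 1.36e-06 with vehicle, 1.28-fold higher. It ranked 4 of the 16 by fold, 7 of the 16 were higher with BMP7, and their median fold was 0.844, as the authors' deposited table gives them. The name carries neither a nor b, and the aligned 5p arms of miR-199a and miR-199b differ at 1 base. The panel fold has the same direction as that of the miR-199a array probe. In the authors' deposited table it is the smaller as given (1.28 against 1.95) and the larger once each is divided by the median of its own platform (1.52 against 1.34), so the order of size is not settled. Neither has an error.

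**Figure D5:**
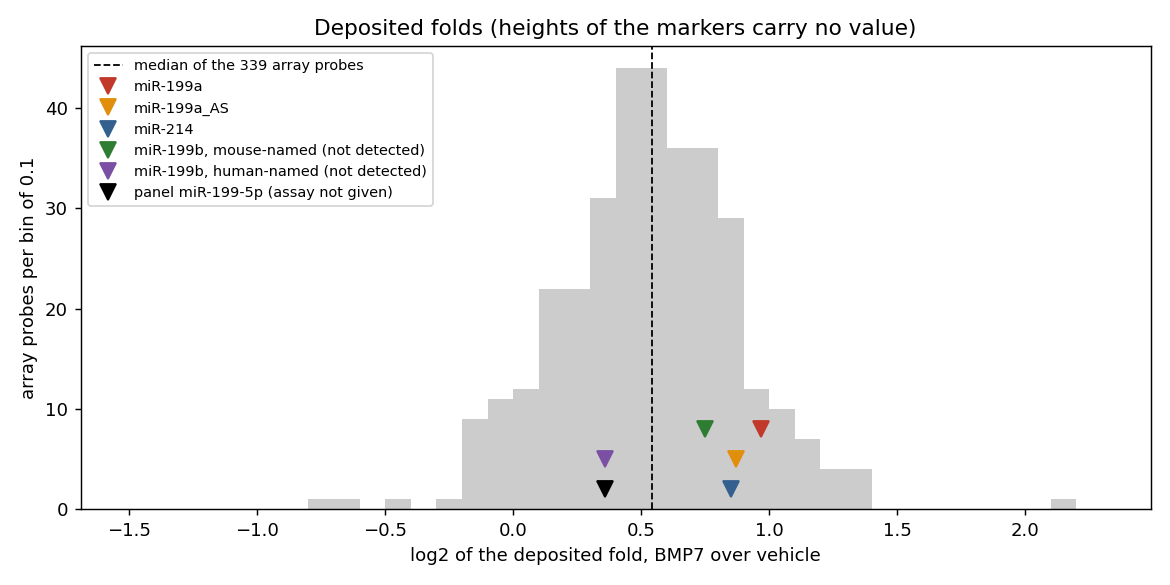
Log2 of the deposited fold, BMP7 over vehicle, for its array probes (grey bars, number of probes per bin), with the probes of the members and the panel row as triangles at their fold. The dashed line is the median of the array probes, 0.54; miR-199a (0.97), miR-199a_AS (0.87), miR-214 (0.85) and the mouse-named miR-199b (0.75) lie to its right, and the human-named miR-199b and the panel row (0.36 each) to its left.

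The miRNAs closest to the members in change were found by the distance of their log2 change from the members' median of 0.91, over the 2 arrays. They were miR-140_AS, a strand of the cartilage miRNA miR-140, at 0.95 ± 0.21, miR-221 at 0.87 ± 0.25, miR-223, best known from myeloid cells, at 1.01 ± 0.12, miR-30a-5p at 0.73 ± 0.15 and miR-22 at 1.12 ± 0.13. MiR-221 and miR-30a-5p were not well above background on the vehicle array. Their own means there exceeded the lowest detected mean of that array. Their folds, 1.83 and 1.66 higher, are thus estimates with the spot errors above and not lower limits. Of the 5 nearest miRNAs, all but miR-140_AS lie in block 11 with miR-214. In the authors' deposited table, relative to the median of the array probes, their log2 folds were 0.75 for miR-140_AS, 0.31 for miR-221, -0.32 for miR-223, 0.04 for miR-30a-5p and 0.38 for miR-22, so the direction of miR-223 flips there. A likeness over 2 arrays says only that the changes were of similar size.

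Other miRNAs of bone and cartilage did not share one direction. Of 18 in the list, 17 had a probe and 6 were detected, 3 higher and 3 lower with BMP7, with a median log2 change of -0.02, equal to that of all 64 detected miRNAs. Both strands of miR-140 had BMP7 spots brighter than any vehicle spot, with log2 changes of 0.95 ± 0.21 for miR-140_AS and 0.69 ± 0.21 for miR-140. MiR-26a, known to favour osteogenic differentiation in some mesenchymal cells, was 1.32-fold lower (-0.40 ± 0.08), with its BMP7 spots all below those of vehicle, but at 0.02 in the authors' deposited table once centred. There miR-140_AS was at 0.75, miR-140 at 0.01, miR-125b at -0.39, miR-135b at -0.71 and miR-138 at -1.0. MiR-125b at 0.06 ± 0.13 and miR-138, which restrains osteoblast differentiation, at -0.09 ± 0.16 had overlapping spots. MiR-135b, not well above background with BMP7, had overlapping spots. Against the lowest detected mean of the BMP7 array it was 1.19-fold lower, with the spot error not counted.

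SMAD proteins are known to bind some primary miRNA transcripts, that of miR-199a among them, and to aid their processing. Of 9 others named in that list, all had a probe and 3 were detected, all higher, against 48.4% of the 64 detected miRNAs, with a median log2 change of 0.31 against -0.02. MiR-21, the best known of them, was 1.24-fold higher (0.31 ± 0.12) and miR-23a 1.22-fold higher (0.29 ± 0.08), each without overlap of the spots. MiR-23b was at 1.45 ± 1.02 with overlapping spots. MiR-21 and miR-23b lie in block 1, where the median log2 change of all probes was 0.55, above that of miR-21. MiR-23a lies in block 9, where that median was -0.14. Once centred, the log2 folds in the authors' deposited table were -0.23 for miR-21, 0.10 for miR-23a and -1.26 for miR-23b, so 2 of the 3 turn direction. On the normalized scale the changes of miR-21 and miR-23a were smaller than those of both miR-199a arms.

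The promoter of Dnm3os is shown because Mir199a-2 and Mir214 lie in that transcript. It covers 250 bases before to 50 after the RefSeq start (GRCm38.p6), with matches of 2 motifs in capitals: CANNTG, the E-box bound by Twist1 and other factors, and CAGAC, a SMAD-binding element, searched on both strands; no matches of the 2 motifs overlap.
Dnm3os promoter, chr1:162217373-162217672 (+): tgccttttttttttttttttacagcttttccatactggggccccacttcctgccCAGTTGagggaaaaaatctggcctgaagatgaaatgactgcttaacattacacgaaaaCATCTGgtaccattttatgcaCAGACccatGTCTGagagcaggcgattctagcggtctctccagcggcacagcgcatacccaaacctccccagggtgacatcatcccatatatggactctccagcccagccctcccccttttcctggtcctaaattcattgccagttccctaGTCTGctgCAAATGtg
CANNTG matched at 3 places. Of 32851 promoters of this length, 72.3% hold at least 1 match and 17.6% hold at least 3. CAGAC matched at 3 places, where 49.6% of the promoters hold at least 1 match and 3.9% hold at least 3. A match of letters is a description of the window and not a bound site.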

How the data were processed

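Each group (BMP7, vehicle) has 1 array. Per the file headers, the authors' GenePix exports hold intensity, the mean spot brightness in the Cy3 and a red channel, with no normalization and local background not subtracted. Per the file headers they also hold background-subtracted sums and ratios, used as a score to solve the local background for 1727 of 1728 spots per array; the other 1 took its block's median. The authors' deposited table gives a ratio per group, rebuilt within 0.1% for 336 (BMP7) and 337 (vehicle) of its array probes, and a BMP7 over vehicle fold.

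Cy3 brightness was corrected with normexp (offset 50, limma 3.58.1, R 4.3.3), control spots were removed, arrays were quantile normalized on the log2 scale and 4 spots averaged; tables were made with pandas 2.3.3 in Python 3.11.15. Detection asked 2 of 4 spots to exceed their local background by 2 SD of the local backgrounds over the array, in place of each spot's own background SD. A fold given for a miRNA detected on 1 array took, on the dim array, the higher of its own mean and the lowest detected mean there. Log2 changes, shares, ranks and medians took the own means on both arrays. In the shares miR-141, detected with vehicle only, thus counts as 1.59-fold higher with BMP7. Background correction and normalization were run on simulated arrays with changes larger than those of the members. The check asked for the right direction, and no block effect on the signal was simulated. Of 377 probes, 278 were named for a mouse miRNA gene of RefSeq (GRCm38.p6), giving 255 miRNAs. Named were the members, the 5 nearest miRNAs and the detected miRNAs of the lists. Members and lists were chosen with earlier results of these data known. The number of arrays limits the precision.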

Additional observations from a re-analysis of the deposited data

How the results depend on the processing

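No paired analysis was possible because each group has 1 array. List sums without members, centred folds of other miRNAs and the panel, block medians, Cy3 Control spots of the own block and plain subtraction with median scaling were added after the data were seen. Of the 66 alternative log2 changes, all above 0, 49 moved by less than the spread over spots. The 49 include all values that left out 1 spot, which could neither fall below 0 nor move by more than that spread. Values that moved more, for miR-199a, miR-199a_AS, miR-214 and their median, were 1.32, 1.28, 1.07 and 1.28 with plain subtraction, 2.01, 2.02, 1.85 and 2.01 with plain subtraction and median scaling, and 0.41, 0.32, 0.29 and 0.32 as the ratio of wavelengths. In the authors' deposited table, the log2 folds were 0.97, 0.87 and 0.85 as given, and 0.42, 0.32 and 0.31, with a median of 0.32, once centred. MiR-214, whose spots were tightest, also moved to 0.67 with no background correction, 0.77 with 75th percentile scaling, 0.66 with no normalization, 0.30 against its block and 0.62 on the Cy3 Control spots of its block. Leaving out 1 spot gave 0.82 to 1.05 for miR-199a, 0.71 to 0.96 for miR-199a_AS and 0.87 to 0.94 for miR-214. At least 1.5-fold higher were 3 members, but 2 against the block median (miR-214 dropped out), 0 as the ratio of wavelengths and 0 in the centred deposited table. At least 2-fold higher were 0 members, but 3 with plain subtraction, 3 with that and median scaling, 2 when all Cy3 Control spots set the scale, and 1 without BMP7 spot 3, without BMP7 spot 4 or without vehicle spot 1. The cause of these shifts was not tested. Under these alternatives the shares of all detected mouse miRNAs past each fold were not counted. The same 3 members were detected on both arrays at 1 SD, at 3 SD and above the 95th percentile of probes with no mouse gene. A second probe, named for another species, exists for miR-199b alone, and the probes of the detected members are human-named. Brightness low over its background limits detection, above all for miR-199b.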

Other observations

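The higher values with BMP7 were unevenly spread over the array. Of the 10 detected miRNAs that were at least 1.5-fold higher without overlap of the spots, 5 lie in block 11 (miR-214, miR-22, miR-221, miR-223 and miR-30a-5p) and 2 in block 15 (miR-199a and miR-140). The other 3 are miR-199a_AS in block 7, miR-140_AS in block 6 and miR-92 in block 16. At the other end, block 13, with a median log2 change of -0.73 over its probes, holds let-7a, let-7c, let-7e and miR-145 among its 7 detected miRNAs. The probes not detected on either array had a median log2 change of 0.53 in block 11 and -0.67 in block 13. The median local background of block 11 was 4677 with BMP7 and 4015 with vehicle, and that of block 13 was 4615 with BMP7 and 3027 with vehicle. MiR-92, the let-7 miRNAs and miR-145 were chosen here after their values were seen.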
